A study of Mus musculus with 45 samples.

Results

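Costimulatory and checkpoint ligands are surface proteins with which a macrophage instructs the T cells it meets, and 10 of their genes were followed in mouse bone marrow-derived macrophages: *Cd40*, *Cd80*, *Cd86*, *Cd274*, *Pdcd1lg2*, *Icam1*, *Icosl*, *Tnfsf9*, *Cd69* and *Vsir*. The members were selected by gene name, and all 10 were found among the 29307 genes of the count table and passed the filter on low counts that left 12905 genes for testing. Macrophages came from C57BL/6N mice of 6 to 10 weeks that had been engineered to express 1 of 3 human variants of FAMIN, a purine enzyme encoded by *Lacc1*. *Famin* p.254I carries the non-risk form, *Famin* p.254V the form linked to risk of inflammatory disease, and *Famin* p.284R the form behind a monogenic disease. Marrow cells of 5 mice per genotype were grown for 6 days in medium with M-CSF, a growth factor that drives macrophage formation. For the next 24 h they received no stimulus (M0), IFN-γ at 50 ng/mL together with LPS at 20 ng/mL (M1), or IL-4 at 20 ng/mL (M2). Poly(A) RNA was sequenced in 45 libraries, 5 in each of 9 groups, and each mouse gave a library in each polarization. All groups carry a human variant, so no unmodified *Famin* allele stands among them, and the variants alter the protein, so the gene counts used here cannot check the genotype labels. These are bulk libraries, in which a change in the share of cells that express a gene cannot be told apart from a change in RNA per cell.

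A T cell that recognises antigen needs further signals before it responds. CD80 and CD86 bind CD28 to give such a signal, or CTLA-4 to withhold it, while ICOS ligand and 4-1BB ligand (*Tnfsf9*) engage ICOS and 4-1BB. PD-L1 (*Cd274*) and PD-L2 (*Pdcd1lg2*) bind the inhibitory receptor PD-1, VISTA (*Vsir*) restrains T cells and myeloid cells, ICAM-1 holds the contact through the integrin LFA-1, and CD40 receives the signal of CD40 ligand on helper T cells. CD69 is an early activation antigen of leukocytes rather than a ligand in the narrow sense. LPS acts through NF-κB and IL-4 through STAT6, while IFN-γ induces a broad set of interferon-response genes.

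The sequences before the start sites are shown only for members whose windows held a match to a motif reported below, and the other members also differ between M1 and M2. The part of these motifs in the members' levels was not tested. RefSeq promoter windows (GRCm38.p6), from 250 bases before to 50 after the start used for the window, matched 6 of the 10 members. That start can differ from the gene coordinates given below, and the *Cd80* window (chr16:38458683-38458982) lies inside the annotated gene. *Cd40*, *Cd69*, *Cd86* and *Tnfsf9* are named only. The windows of *Pdcd1lg2* (chr19:29410669-29410968) and *Icosl* (chr10:78069118-78069417), both on the plus strand, are written with each match in capitals.
Pdcd1lg2: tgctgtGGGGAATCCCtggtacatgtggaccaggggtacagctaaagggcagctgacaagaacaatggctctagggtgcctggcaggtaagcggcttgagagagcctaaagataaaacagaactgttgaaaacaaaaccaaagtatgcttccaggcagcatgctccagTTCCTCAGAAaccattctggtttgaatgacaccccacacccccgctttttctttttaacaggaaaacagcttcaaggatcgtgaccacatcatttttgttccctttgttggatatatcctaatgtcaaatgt
Icosl: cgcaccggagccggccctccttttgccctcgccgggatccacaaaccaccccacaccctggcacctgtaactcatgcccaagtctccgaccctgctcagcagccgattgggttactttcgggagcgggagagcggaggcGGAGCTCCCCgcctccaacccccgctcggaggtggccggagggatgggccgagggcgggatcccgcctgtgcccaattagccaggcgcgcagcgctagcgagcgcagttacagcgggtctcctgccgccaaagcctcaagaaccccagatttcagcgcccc
Motifs were searched on both strands. The STAT6 form TTCNNNNGAA was matched once, in *Pdcd1lg2* with its first base at -82 from the start, and 6.95% of the 32851 RefSeq promoters held it. The kappa-B consensus of NF-κB was matched in *Pdcd1lg2* at -244 and in *Icosl* at -111, against 8.46% of promoters. The interferon-stimulated response element TTTCNNTTTC was matched in none of the 6 windows and in 3.44% of promoters. The windows of *Cd80*, *Cd274* and *Vsir* held none of these 3 motifs, which says only that these letters are not in them.

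Totals ran from 17239009 to 43740283 counts per library with a median of 27553642. On these totals 1 CPM (counts scaled to library size) stands for between 17.2 and 43.7 reads. The CPM values printed are scaled further between libraries (TMM), so their reads per CPM can fall outside that range. Of 10 macrophage markers listed, 9 were in the count table and all 9 averaged at least 1 CPM in each polarization. The summed CPM of the macrophage markers was 20332 to 33928 in M0, 12117 to 16103 in M1 and 9746 to 14070 in M2. The M1 markers (*Nos2*, *Cxcl9*, *Il12b*, *Cxcl10* and *Il6*) summed to between 1307 and 6642 CPM in M1 and to at most 22.9 CPM in M0, although *Il12b* and *Il6* stayed under 1 CPM on average in M1. The M2 markers summed to between 4453 and 14206 CPM in M2, 645 to 914 CPM in M0 and 71.6 to 362 CPM in M1. Among these, *Arg1* averaged 8.70 CPM and *Retnla* 9.85 CPM in the M1 group of *Famin* p.254I. The M1 groups of the other genotypes averaged at most 0.633 CPM of *Arg1* and 0.0909 CPM of *Retnla*. That *Famin* p.254I group is the reference of the genotype comparisons in M1. The part of these transcripts in those comparisons was not tested. The dendritic cell list, whose cells also carry these ligands, summed to between 5.75 and 8.92 CPM in M0, 38.0 to 65.1 CPM in M2 and 230 to 457 CPM in M1, where 4 of 9 genes averaged at least 1 CPM. By group means these were *Clec9a* (278 to 322 CPM), *Batf3* (15.2 to 18.3), Xcr1 (7.56 to 9.03) and Dpp4 (6.66 to 9.10) in M1, *Batf3* (43.3 to 48.2) and Zbtb46 (7.03 to 8.81) in M2, and *Batf3* (4.94 to 5.58) in M0, while *Flt3*, *Ccr7*, *Cd209a* and Siglech stayed under 1 CPM throughout. T and NK cell markers summed to at most 46.8 CPM, nearly all of it *Cd4*, with the *Cd3* genes near 0, and B cell markers to at most 11.8 CPM. Neutrophil and progenitor markers summed to at most 281 CPM in M0, 135 CPM in M1 and 73.1 CPM in M2, with medians of 74.5, 60.3 and 31.1 CPM. Stromal markers reached 96.4 CPM in M0, 26.6 CPM in M1 and 53.0 CPM in M2, and mast cell and basophil markers at most 2.37 CPM. The part of these other lists in the ligands' changes was not tested.

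Among the 15 M1 libraries 3 stood apart, those of *Famin* p.284R replicates 3, 4 and 5. Their M1 markers summed to 6642, 5854 and 6419 CPM, against 1307 to 4032 CPM in the other 12. Their *Nos2* was 81.5, 149 and 131 CPM, against 3.01 to 26.0 CPM elsewhere. *Lacc1*, which encodes FAMIN, was at 218, 584 and 553 CPM in these 3 libraries. It was at 396 and 263 CPM in *Famin* p.284R replicates 1 and 2 in M1, and at 486 to 597 CPM in the M1 libraries of the other genotypes. For 5 members (*Cd40*, *Cd69*, *Icam1*, *Cd274* and *Tnfsf9*) all 3 libraries lay above all 12 others, and for the other 5 the ranges overlapped; of all genes tested 4.85% lay above in this way. The genotype differences printed for those 5 members in M1 are therefore given with and without them. The 3 libraries were singled out after seeing the data, and only replicates 1 and 2 of *Famin* p.284R then remain in M1. For those 5 members leaving out the highest libraries lowers the difference by construction. Values without the 3 libraries thus describe where a difference lies and do not test it.

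Per kilobase of exon, a scale on which genes can be compared approximately, the members covered a wide range. Lengths are unions of all annotated exons and not of the transcripts expressed, so the order depends in part on the annotation. In M0 *Vsir* was highest with a median of 154 CPM per kb, apart from *Cd274* at 28.5 and *Icam1* at 22.3, which overlapped each other. *Cd86* (6.19), *Cd40* (3.62), *Cd80* (2.80), *Icosl* (2.66) and *Tnfsf9* (1.43) followed, each overlapping its neighbour in the order, and *Cd69* (0.276) and *Pdcd1lg2* (0.169) overlapped at the bottom. In M1 the order was led by *Cd274* at 392 CPM per kb, apart from *Icam1* (127), *Vsir* (118) and *Cd86* (92.5), which overlapped in turn, while *Tnfsf9* was last at 1.39. In M2 *Vsir* (74.8) and *Cd274* (48.6) led with overlapping ranges, *Pdcd1lg2* had the 4th highest median (19.4) and *Icosl* (0.136) and *Cd69* (0.0227) were the lowest. PD-L2 transcripts thus moved from the lowest median of the members in M0 to the 4th highest in M2.

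**Figure D1:**
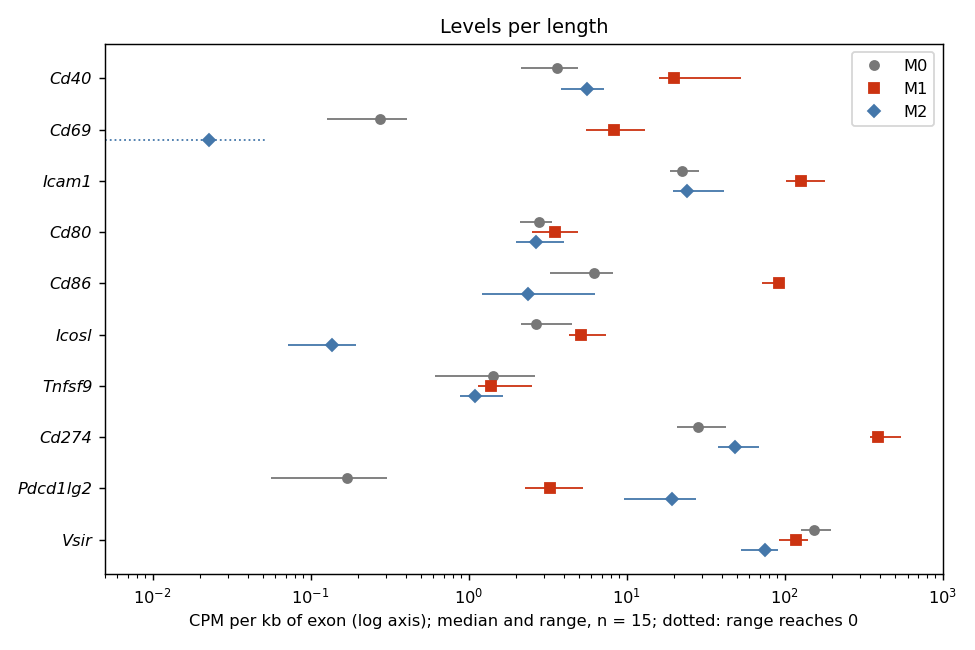
Median and range over 15 libraries of each member's level in CPM per kb of exon, on a log axis, in M0 (circles), M1 (squares) and M2 (diamonds). *Cd274* in M1 has the highest median, 392 CPM per kb, and *Cd69* in M2 the lowest, 0.0227 CPM per kb.

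M1 polarization raised most of these genes. In edgeR's quasi-likelihood fit, with p-values adjusted over all 12905 genes by the method of Benjamini and Hochberg and called under 0.05, 8 of 10 members were higher in M1 than in M0 and 1 was lower, where 37.0% of all genes were called higher and 40.3% lower. The median log2 fold change of the members was 2.63, beside -0.03 over all genes. For 6 members the 15 M1 libraries and the 15 M0 libraries did not overlap, which held for 28.6% of all genes. M2 polarization split the members: 4 were called higher and 4 lower than in M0 (36.8% and 39.6% of all genes), with a median of -0.16 beside -0.03 over all genes and 4 members without overlap (23.4% of all genes). These shares rest on 10 genes chosen by name with earlier results of these data known, and both comparisons use the same M0 libraries. The plot of levels by polarization shows the libraries behind the counts.

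**Figure D2:**
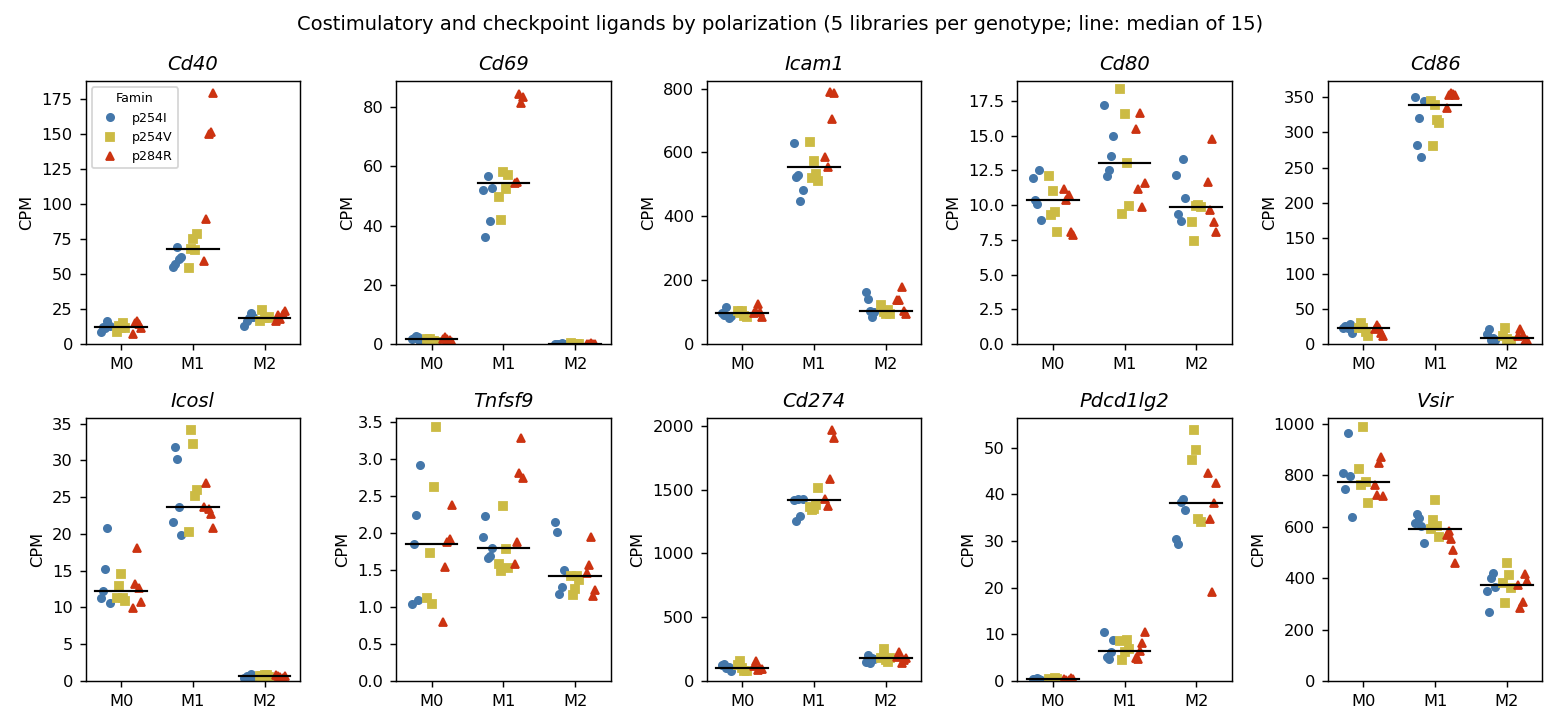
CPM of each member in M0, M1 and M2, with 5 points per *Famin* genotype and a line at the median of 15 libraries; each panel has its own linear axis from 0. *Cd274* rises from a median of 103 CPM in M0 to 1419 CPM in M1, and *Pdcd1lg2* is highest in M2, at 38.1 CPM.

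*Cd40* (ENSMUSG00000017652, chromosome 2, 165055627 to 165072948, plus strand in GRCm38) encodes the receptor through which helper T cells license antigen-presenting cells. Its level was 7.33 CPM at the lowest, 12.3 at the median and 16.9 at the highest in M0. It was 54.7, 68.1 and 180 CPM in M1, and 13.2, 19.0 and 24.7 CPM in M2. All M1 libraries lay above all others, whereas M2 and M0 overlapped. The rise was 6.45-fold in M1 (log2 2.69, SE 0.12, adjusted p = 4.01e-22 by edgeR) and 1.53-fold in M2 (log2 0.62, SE 0.12, adjusted p = 1.92e-05 by edgeR). Within mice *Cd40* was higher in 15 of 15 cultures for both polarizations, by 3.67 to 15.7 times in M1 and by 1.07 to 2.26 times in M2.

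*Cd69* (ENSMUSG00000030156, chromosome 6, 129267325 to 129275436, minus strand), which encodes a C-type lectin that appears on leukocytes soon after activation, had the largest rise of the members in M1 and fell in M2. Its lowest, median and highest levels were 0.830, 1.80 and 2.64 CPM in M0 and 36.2, 54.3 and 84.6 CPM in M1. In M2 they were 0, 0.148 and 0.340 CPM, that is 0 to 11 reads, with 2 libraries at 0. The 3 polarizations did not overlap. *Cd69* rose 34.4-fold in M1 (log2 5.10, SE 0.15, adjusted p = 3.13e-29 by edgeR) and was 9.77-fold lower in M2 (log2 -3.29, SE 0.25, adjusted p = 3.22e-15 by edgeR), with the same direction in 15 of 15 mice each time. The M2 value rests on few reads.

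*Icam1* (ENSMUSG00000037405, chromosome 9, 21015985 to 21028817, plus strand) encodes the adhesion ligand of LFA-1. Its levels were 82.6, 97.3 and 126 CPM in M0, 447, 553 and 788 CPM in M1, and 86.2, 105 and 180 CPM in M2, as lowest, median and highest. M1 stood clear of both others, and M2 overlapped M0. The rise was 5.98-fold in M1 (log2 2.58, SE 0.09, adjusted p = 1.39e-26 by edgeR, 15 of 15 mice) and 1.21-fold in M2 (log2 0.27, SE 0.08, adjusted p = 0.00417 by edgeR, 13 of 15 mice). The annotated gene *Gm47079* lies on the other strand with overlapping exons, and since the sources used here do not state how strand was treated in counting, reads of such partners cannot be told apart.

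*Cd80* and *Cd86* encode the paired ligands of CD28 and CTLA-4, and the latter was called higher in M1 and lower in M2. *Cd80* (ENSMUSG00000075122, chromosome 16, 38455561 to 38496335, plus strand) stood at 7.86, 10.4 and 12.6 CPM in M0, 9.36, 13.0 and 18.4 CPM in M1 and 7.44, 9.85 and 14.8 CPM in M2, so that all polarizations overlapped. It rose 1.33-fold in M1 (log2 0.41, SE 0.10, adjusted p = 0.000269 by edgeR, 15 of 15 mice). The log2 difference of *Cd80* in M2 was 0.01 (SE 0.10, adjusted p = 0.928 by edgeR), higher in 9 and lower in 6 of 15 mice. *Cd86* (ENSMUSG00000022901, chromosome 16, 36603869 to 36666081, minus strand) stood at 11.99, 22.7 and 30.0 CPM in M0, 265, 338 and 355 CPM in M1, and 4.49, 8.75 and 23.2 CPM in M2. Its M1 libraries lay above all others, and M2 overlapped M0. *Cd86* rose 15.2-fold in M1 (log2 3.92, SE 0.21, adjusted p = 1.20e-19 by edgeR) and was 1.94-fold lower in M2 (log2 -0.95, SE 0.20, adjusted p = 6.72e-05 by edgeR), each in 15 of 15 mice. At the median *Cd86* exceeded *Cd80* on the per-kb scale in M0 and in M1, where the medians were 92.5 and 3.51 CPM per kb, while in M2 they were 2.39 and 2.66 CPM per kb and their ranges overlapped.

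*Icosl* (ENSMUSG00000000732, chromosome 10, 78069302 to 78083913, plus strand), the B7 family ligand of ICOS, rose in M1 and fell to under 1 CPM in M2. Its levels were 9.93, 12.3 and 20.8 CPM in M0 and 19.9, 23.7 and 34.1 CPM in M1, which overlapped slightly. In M2 they were 0.332, 0.629 and 0.897 CPM, or 9 to 29 reads, below every library of M0 and M1. The change was a 1.95-fold rise in M1 (log2 0.97, SE 0.10, adjusted p = 7.80e-12 by edgeR) and a 20.3-fold lower level in M2 (log2 -4.34, SE 0.13, adjusted p = 3.00e-28 by edgeR), each in 15 of 15 mice.

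*Tnfsf9* (ENSMUSG00000035678, chromosome 17, 57105325 to 57107757, plus strand), which encodes 4-1BB ligand, was low throughout. It stood at 0.795, 1.85 and 3.42 CPM in M0, 1.48, 1.80 and 3.27 CPM in M1, and 1.14, 1.41 and 2.14 CPM in M2, and the 3 polarizations overlapped. *Tnfsf9* differed in M1 by a log2 value of 0.12 (SE 0.16, adjusted p = 0.507 by edgeR, higher in 10 of 15 mice) and in M2 by -0.33 (SE 0.16, adjusted p = 0.0611 by edgeR, lower in 7 of 15 mice), and neither passed the test. The M2 difference was called when replicate 1 of any genotype or replicate 3 of *Famin* p.254V was left out (adjusted p 0.0238 to 0.0381). *Gm11110*, whose exons overlap *Tnfsf9* on the other strand, had a median of 1.40 CPM in M0, 1.998 CPM in M1 and 1.23 CPM in M2, so shared reads could matter at these levels.

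The PD-1 ligands both rose in M1 and in M2, with *Cd274* highest in M1 and *Pdcd1lg2* highest in M2. *Cd274* (ENSMUSG00000016496, chromosome 19, 29367455 to 29388095, plus strand), which encodes PD-L1, stood at 76.1, 103 and 154 CPM in M0, 1256, 1419 and 1969 CPM in M1, and 137, 176 and 248 CPM in M2. M1 lay far above the others, and M2 overlapped M0 in part. *Cd274* rose 13.6-fold in M1 (log2 3.77, SE 0.11, adjusted p = 2.21e-29 by edgeR) and 1.64-fold in M2 (log2 0.72, SE 0.10, adjusted p = 1.72e-08 by edgeR), each in 15 of 15 mice. The annotated AC119228.1 overlaps its exons on the other strand. *Pdcd1lg2* (ENSMUSG00000016498, chromosome 19, 29410919 to 29471161, plus strand), which encodes PD-L2 and whose window above holds the STAT6 motif, stood at 0.110, 0.332 and 0.602 CPM in M0, or 4 to 21 reads. It was at 4.44, 6.47 and 10.5 CPM in M1 and at 19.0, 38.1 and 53.7 CPM in M2, with no overlap among the 3. The rise was 18.5-fold in M1 (log2 4.21, SE 0.19, adjusted p = 1.74e-22 by edgeR) and 101-fold in M2 (log2 6.66, SE 0.19, adjusted p = 7.82e-29 by edgeR), both against very few M0 reads.

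*Vsir* (ENSMUSG00000020101, chromosome 10, 60346851 to 60372684, plus strand), which encodes VISTA, was the only member called lower under both stimuli. Its levels were 640, 775 and 988 CPM in M0, 459, 592 and 703 CPM in M1, and 267, 375 and 457 CPM in M2. M1 overlapped M0, and M2 lay below both. *Vsir* was 1.36-fold lower in M1 (log2 -0.44, SE 0.07, adjusted p = 1.53e-07 by edgeR) and 2.17-fold lower in M2 (log2 -1.12, SE 0.07, adjusted p = 3.39e-18 by edgeR), in 15 of 15 mice each.

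**Figure D3:**
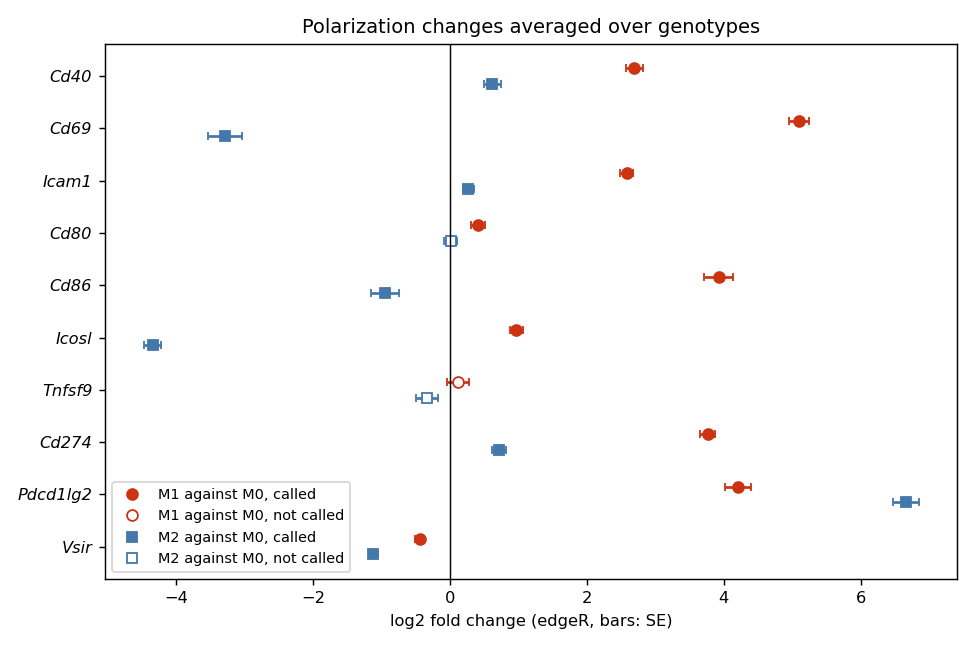
Log2 fold change of each member in M1 (circles) and M2 (squares) against M0, averaged over the 3 genotypes, with SE as bars; filled symbols were called. *Icosl*, *Cd69* and *Cd86* lie on opposite sides of 0 in M1 and M2, and *Pdcd1lg2* in M2 is the largest change, at 6.66.

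Set directly against M2, M1 was higher for 9 members and lower for 1, and all 10 were called, where 39.0% of all genes were called higher and 40.1% lower. For 8 members the libraries did not overlap (35.7% of all genes). The exception in direction was *Pdcd1lg2*, which was 5.46-fold lower in M1 (log2 -2.45, SE 0.14, adjusted p = 1.24e-19 by edgeR, 15 of 15 mice). *Cd69* differed most (log2 8.39, SE 0.20, adjusted p = 2.32e-32 by edgeR), followed by *Icosl* (log2 5.31, SE 0.13) and *Cd86* (log2 4.88, SE 0.23). *Cd274* by contrast was 8.27-fold higher in M1 than in M2, and it stayed above *Pdcd1lg2* on the per-kb scale in both states (medians of 392 and 3.30 CPM per kb in M1, 48.6 and 19.4 in M2). *Tnfsf9* was called with a log2 difference of 0.45 (SE 0.16, adjusted p = 0.0119 by edgeR), but without the 3 M1 libraries that stood apart the value was 0.28 (SE 0.18, adjusted p = 0.170). Every other polarization call of the members was kept without those libraries.

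Genotype was then compared within each polarization, since the variants differ in FAMIN function. *Cd40* in M1 was the 1 call among all members and genotype comparisons. Its levels in M1 were 54.9, 57.6, 69.8, 60.7 and 62.4 CPM in *Famin* p.254I replicates 1 to 5. In *Famin* p.254V they were 54.7, 68.1, 75.1, 67.6 and 78.6 CPM, and in *Famin* p.284R 59.6, 89.7, 150, 152 and 180 CPM. Thus 4 *Famin* p.284R libraries exceeded every other M1 library, and replicate 1 fell within the range of *Famin* p.254I, so that the genotypes overlapped. The means were 61.1 ± 5.67 CPM in *Famin* p.254I, 68.8 ± 9.17 CPM in *Famin* p.254V and 126 ± 49.6 CPM in *Famin* p.284R (SD, n = 5). Compared with *Famin* p.254I, *Cd40* of *Famin* p.284R was 2.06-fold higher (log2 1.05, SE 0.20, adjusted p = 0.0152 by edgeR), in a comparison in which 34 genes, 0.263% of all tested, were called and 0.604% had ranges that did not overlap. Between libraries with the same replicate number the ratio was 1.09, 1.56, 2.15, 2.50 and 2.88, higher in 5 of 5.

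The call for *Cd40* was lost without any 1 of 4 mice, although the difference stayed nearly as large. Without *Famin* p.284R replicate 3, 4 or 5 the log2 difference was 0.97, 0.96 and 0.89 (adjusted p = 0.0936, 0.154 and 0.145 by edgeR), and without *Famin* p.254I replicate 2 it was 1.03 (adjusted p = 0.0594). Without *Famin* p.284R replicate 1 it was 1.22 (adjusted p = 2.45e-05 by edgeR). Without all 3 *Famin* p.284R M1 libraries that stood apart, the log2 difference was 0.28 (SE 0.21, adjusted p = 1.00 by edgeR). In that fit 0 of all genes were called in place of 34, with 231 at an unadjusted p under 0.05. It keeps only replicates 1 and 2 of *Famin* p.284R in M1, and dropping the highest *Cd40* libraries lowers the difference by construction. With only the 10 libraries compared in the fit, the difference was 1.04 (SE 0.25, adjusted p = 0.809). The same 3 libraries had *Cxcl9* of 5340, 4723 and 5125 CPM and *Cxcl10* of 1220, 981 and 1163 CPM, above the other 12 M1 libraries. The part of these M1 markers in the *Cd40* difference was not tested. In the same 3 mice *Cd40* in M0 was 16.9, 14.7 and 11.4 CPM, inside or just above the 8.81 to 16.5 CPM of *Famin* p.254I.

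**Figure D4:**
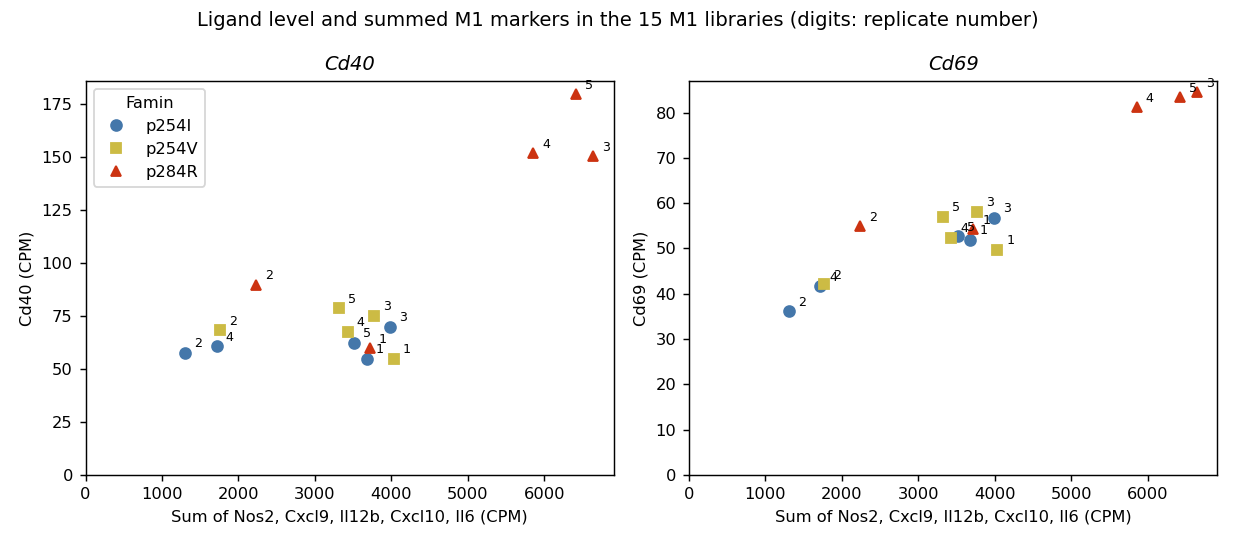
CPM of *Cd40* (left) and *Cd69* (right) against the summed CPM of 5 M1 markers in the 15 M1 libraries, by *Famin* genotype, with replicate numbers beside the points. *Famin* p.284R replicates 3, 4 and 5 lie apart at 5854 to 6642 CPM of the markers and at 150 to 180 CPM of *Cd40*.

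Other members moved in those libraries too. *Cd69* in M1 was 51.9, 36.2, 56.8, 41.7 and 52.7 CPM in *Famin* p.254I and 49.8, 42.1, 58.2, 52.4 and 57.1 CPM in *Famin* p.254V. In *Famin* p.284R it was 54.3, 54.9, 84.6, 81.3 and 83.4 CPM, so that replicates 1 and 2 lay inside the range of the others and 3 to 5 above it. The difference from *Famin* p.254I had a log2 value of 0.58 (SE 0.20, adjusted p = 0.394 by edgeR), higher in 5 of 5 same-numbered pairs, and without the 3 libraries that stood apart it was 0.18 (SE 0.26). *Icam1* in M1 was 628, 523, 530, 447 and 481 CPM in *Famin* p.254I and 586, 553, 788, 705 and 785 CPM in *Famin* p.284R, with a log2 difference of 0.39 (SE 0.15, adjusted p = 0.483 by edgeR), and of 0.12 (SE 0.19) without those 3. *Cd274* in M1 was 1419, 1256, 1429, 1296 and 1430 CPM in *Famin* p.254I and 1428, 1371, 1587, 1969 and 1905 CPM in *Famin* p.284R. Its log2 difference was 0.27 (SE 0.17, adjusted p = 0.863 by edgeR), and 0.03 (SE 0.22) without those 3. *Cd69* and *Icam1* had unadjusted p under 0.05 and did not pass the adjustment, and for the 7 members other than *Cd40*, *Cd69* and *Icam1* the log2 differences lay between -0.18 and 0.40, the highest being *Tnfsf9* (0.40, SE 0.28), which was at -0.12 (SE 0.38) without the 3 libraries. *Cd40* and *Cd69* also belong to a set of genes that the study chose on these same libraries, so their direction here is not independent evidence.

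**Figure D5:**
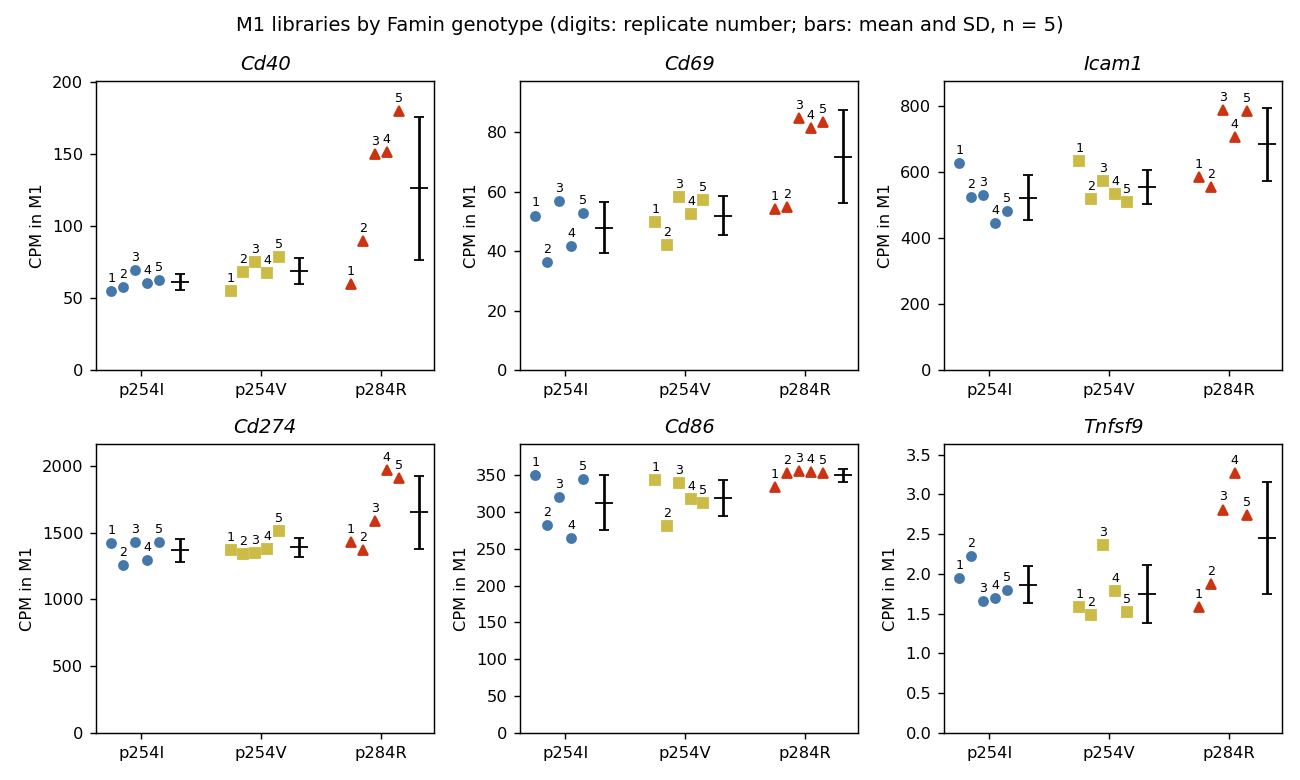
CPM in M1 of 6 members by *Famin* genotype; points are libraries with their replicate number, and bars show mean and SD (n = 5). In *Cd40*, *Cd69*, *Icam1*, *Cd274* and *Tnfsf9* replicates 3, 4 and 5 of *Famin* p.284R lie above all other libraries, and *Cd86* overlaps.

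No member was called in the other genotype comparisons made, and *Famin* p.284R was compared with *Famin* p.254V over all polarizations together but not within each. Averaged over polarizations, *Famin* p.284R against *Famin* p.254I gave 0 member calls by edgeR, where 0.0155% of all genes (2 genes) were called, with 2 members at an unadjusted p under 0.05. These were *Cd40* (log2 0.43, SE 0.12, adjusted p = 0.389) and *Icam1* (log2 0.21, SE 0.08, adjusted p = 1.00). Without the 3 M1 libraries that stood apart they were 0.17 (SE 0.11) and 0.12 (SE 0.09). *Cd40* was called there only when *Famin* p.284R replicate 1 was left out (log2 0.56, adjusted p = 0.00251 by edgeR). *Famin* p.254V against *Famin* p.254I gave 0 of 10 (0.0155% of all genes), with 0 members at an unadjusted p under 0.05. *Famin* p.284R against *Famin* p.254V also gave 0 of 10 (0.0% of all genes), with *Cd40* (log2 0.35, SE 0.12) and *Icam1* (0.24, SE 0.08) at an unadjusted p under 0.05. Without the 3 libraries these were 0.09 (SE 0.11) and 0.15 (SE 0.09). Within M2, *Famin* p.284R against *Famin* p.254I gave 0 of 10 (0.00775% of all genes) and 0 at an unadjusted p under 0.05. In M0, and for *Famin* p.254V in M0, M1 and M2, 0 members and 0.0% of all genes were called by edgeR, and the 1 member at an unadjusted p under 0.05 was *Cd69* for *Famin* p.254V in M0 (log2 -0.63, SE 0.28, adjusted p = 1.00). The DESeq2 Wald test also called 0 members in each of these comparisons. A missing call does not show that the genotypes express these genes alike: with an SE of 0.20 for *Cd40* within M1, smaller shifts than that seen in *Famin* p.284R could pass unseen.

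Whether the genotype difference itself changed with polarization was tested by interaction terms. None passed for the members or for any gene (0.0% of all genes in each of the 4 terms, by edgeR). *Cd40* had the largest change from M0 to M1 for *Famin* p.284R against *Famin* p.254I (log2 0.97, SE 0.29, unadjusted p = 0.00194, adjusted p = 1.00 by edgeR). *Cd69* followed with 0.82 (SE 0.33, unadjusted p = 0.0187, adjusted p = 1.00 by edgeR). Without the 3 libraries that stood apart these were 0.21 (SE 0.28) for *Cd40* and 0.42 (SE 0.37) for *Cd69*. For *Famin* p.254V the 1 member at an unadjusted p under 0.05 was *Cd69* (0.74, SE 0.34, adjusted p = 1.00 by edgeR), and in the M2 terms there were 0. The *Cd40* difference in M1 is therefore not shown to be particular to M1. In ratios of group means, *Cd40* rose from M0 to M1 by 4.90 times in *Famin* p.254I, 5.70 times in *Famin* p.254V and 9.63 times in *Famin* p.284R, and *Cd69* by 23.8, 39.6 and 43.1 times. *Pdcd1lg2* rose from M0 to M2 by 90.9, 117 and 99.3 times in the same order.

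Members were also compared with each other across libraries, as a description, since all 45 libraries share 3 polarizations. *Cd86* and *Cd69* had the closest levels (Pearson r = 0.98 of log2 CPM, 45 libraries), and after the 9 group means were taken out *Cd274* and *Cd69* were closest (r = 0.63). Of all other genes, *Slco3a1* and *Gbp5*, an interferon-induced guanylate-binding protein, were the nearest to both *Cd86* (r = 0.99 and 0.98) and *Cd69* (r = 0.99 each). The nearest 3 to *Pdcd1lg2* were *Uqcrc1* (r = 0.976), *Ddx4* (r = 0.975) and *Batf3*, a transcription factor (r = 0.974). Nearest to *Tnfsf9* was its overlapping partner *Gm11110* (r = 0.73). Around the group means *Cd40* was nearest to *Sdc4*, which encodes a syndecan (r = 0.87), and *Cd69* had *Cxcl10*, an interferon-induced chemokine, among its nearest 3 (r = 0.79).

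Related genes were taken from lists chosen for their place in the pathway, with earlier results of these data known. Their counts stand beside the shares of all genes called, 37.0% higher and 40.3% lower in M1 and 36.8% and 39.6% in M2. Of 11 other TNF superfamily ligands tested, 8 rose and 2 fell in M1, and 3 rose and 7 fell in M2, with median log2 fold changes of 1.36 and -0.45 beside -0.03 over all genes each time. *Tnfsf10*, which encodes the death ligand TRAIL, rose in M1 (log2 4.13, SE 0.19) and fell in M2 (-1.77, SE 0.22). *Tnfsf4*, which encodes OX40 ligand, rose in M2 (2.59, SE 0.28), and *Tnfsf14*, which encodes LIGHT, rose in M1 (1.60, SE 0.13) and fell in M2 (-2.60, SE 0.17). Of 14 other adhesion and SLAM family genes, 7 rose and 7 fell in M1 and 9 rose and 3 fell in M2. *Slamf8* rose in M1 (4.56, SE 0.17) and in M2 (1.54, SE 0.15), and *Slamf1* rose in M2 (4.23, SE 0.24). *Vcam1*, the adhesion ligand of VLA-4, fell in M2 (-2.13, SE 0.24). Of 12 other checkpoint ligands, 7 rose and 3 fell in M1 and 4 rose and 6 fell in M2. Among them *Tnfrsf14*, which encodes HVEM, rose in M1 (2.14, SE 0.09), *Cd200* fell in M1 (-2.88, SE 0.25) and *Nectin4* fell in M2 (-2.27, SE 0.12). Of the other B7 and butyrophilin ligands 2 were tested, and *Cd276*, which encodes B7-H3, fell in M1 (-2.91, SE 0.17).

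Of 14 receptors and counter-receptors tested, 7 rose and 7 fell in M1 and in M2, an even split like that of all genes. *Cd28*, known as the T cell receptor for CD80 and CD86, averaged 122 CPM in M0, 7.24 CPM in M1 and 25.02 CPM in M2 (log2 -4.09, SE 0.18, in M1) while the *Cd3* genes of T cells were near 0. *Itgal*, the LFA-1 subunit that binds ICAM-1, rose in M1 (2.22, SE 0.22) and fell in M2 (-1.55, SE 0.22), and *Itgax* rose in M2 (3.63, SE 0.20). Of 9 adaptors of CD40 and stabilisers of PD-L1, 8 rose and 1 fell in M1, and 1 rose and 5 fell in M2. *Traf1*, a signalling adaptor used by CD40, rose in M1 (1.14, SE 0.19) and *Traf5* in M2 (2.13, SE 0.05). *Cmtm4*, a stabiliser of PD-L1 at the protein level, was the 1 that fell in M1 (-0.79, SE 0.04), and it fell in M2 (-0.82, SE 0.04). The other listed stabiliser, *Cmtm6*, was among the 8 that rose in M1, where *Cd274* itself rose. All changes named for these lists passed the edgeR test at an adjusted p under 0.05, and 0 listed genes were called between genotypes.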

How the data were processed

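Gene expression was measured in 45 libraries of macrophages, and groups were taken from the sample titles. The methods describe strand-specific poly(A) libraries (50-base reads), Trim Galore and HISAT2 on mm10 with a HiSeq3000, the design text Cutadapt and STAR with a HiSeq4000; the counting tool, its annotation and use of strand are not given in the sources used here. The authors deposited raw counts per Ensembl gene for 29307 genes and a CPM table for 11900 genes, whose values gave back whole reads (within 0.01) equal to the counts in 100.0% of cases; the counts were used. Symbols and coordinates came from GENCODE M21, which held 29146 of the gene identifiers, and exon lengths are unions of exons.

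In R 4.3.3, genes were kept by filterByExpr (12905), scaled by TMM and fitted over the 9 groups by edgeR 4.0.16 (glmQLFit, robust), with Benjamini-Hochberg adjustment and a threshold of 0.05. CPM values in the text are TMM-scaled. Polarizations were averaged over genotypes. The fit was tested on simulated data. Alternatives were DESeq2 1.42.0, limma 3.58.1 (voom), other filters and scalings, a replicate block, fewer libraries, a sum of counts over each mouse, and leaving mice out in turn; the reads recovered from the CPM table and the fit without 3 libraries were added after seeing the data. The members and lists were chosen with earlier results of these data known. All members are named, with up to 4 genes per list of largest absolute change among those called in M1 or M2 and averaging at least 1 CPM (some of these are given by count only), and the 3 genes nearest each member by correlation (log2 of CPM plus 1), of which some are named. Libraries of 1 genotype and number come from the same mouse per the labels and design text; what a number shared between genotypes stands for is not stated. The matches of 1 further motif are not reported here. Deviations from group means of same-numbered libraries correlated over 0.1 in 15 of 15 pairs in M0, 15 of 15 in M1 and 13 of 15 in M2, and in 38 of 45 pairs of the same mouse, over 9522 genes. Since mice and not cultures are independent and the polarization fit has no mouse term, the replicate block gives that comparison within mice. The genotype comparison averaged over polarizations lacks a mouse term too, and the sum of counts over each mouse is its alternative. Lanes held 11 libraries each, and the labels do not place libraries in lanes.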

Additional observations from a re-analysis of the deposited data

Results flagged for a closer look

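In 3 of 90 combinations of member and group, 1 of the 5 libraries lay far from the other 4 relative to the group's range (Dixon's criterion at 95%), and chance flags about 1 group in 20. *Cd86* in M1 of *Famin* p.284R replicate 1 was 334 CPM, below the 352 to 355 CPM of the other 4. *Cd274* in M1 of *Famin* p.254V replicate 5 was 1509 CPM, above the 1342 to 1379 CPM of the others. *Cd69* in M2 of *Famin* p.254V replicate 1 was 0.283 CPM, above 0.115 to 0.152 CPM, a difference of a few reads. Groups with several libraries apart, such as *Cd40* in M1 of *Famin* p.284R, do not meet this criterion.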

How the results depend on the processing

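Across the alternatives 0 of the members' log2 fold changes examined changed direction with a call, and 1003 of 1016 kept their side of the threshold. Those examined were the polarization changes, and the genotype differences or interactions with an unadjusted p under 0.05 in the main fit. A change of sign was not counted where neither fit made a call. The number of members called was kept, within 1.5 times, in 394 of 403 cases. In M2 against M0 it was 5 rather than 8 with at least 10 counts in every library, since *Pdcd1lg2*, *Icosl* and *Cd69* were then not tested. In *Famin* p.284R against *Famin* p.254I in M1 it was 0 rather than 1 with only the libraries compared, and 0 without the 3 *Famin* p.284R M1 libraries that stood apart. With each mouse left out in turn it ranged from 0 to 1 in that comparison, and from 0 to 1 for *Famin* p.284R averaged over polarizations against *Famin* p.254I and against *Famin* p.254V, where *Cd40* was called without *Famin* p.284R replicate 1. With the replicate block, paired by mouse for polarizations and by number for genotypes, no member's call changed: *Cd40* in M1 was 0.99 (SE 0.14, adjusted p = 0.000375 by edgeR). Over all 25 alternatives *Cd40* in M1 was called in 19, always higher, with adjusted p between 2.45e-05 and 1.00.

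The count of all genes called there, 34, was 64 with the replicate block and by DESeq2, 11 by limma-voom, 7 by limma-voom with a random mouse effect, 1 with only the libraries compared, and between 0 and 109 with each mouse left out. The 2 genes of the averaged *Famin* p.284R and *Famin* p.254I comparison became 0 to 11 under other settings and 2 to 19 without a mouse, and the 2 of *Famin* p.254V became 0 to 5 and 1 to 4. The single gene called in M2 for *Famin* p.284R became 1 to 2. The other genotype comparisons, at 0, stayed at or under 3 apart from 7 for *Famin* p.284R against *Famin* p.254V without 1 mouse. Depth limits *Cd69* and *Icosl* in M2 and *Pdcd1lg2* in M0, which rest on 29 reads or fewer per library.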
